A study of Homo sapiens with 16 samples.

Results

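The genes described here are 8 keratins and the transcription factor TP63 in cultures labelled as islets made from HUES08 (HUES8) cells, an established human embryonic stem cell line. They are the simple keratins KRT8, KRT18, KRT19 and KRT7, the squamous keratins KRT5, KRT6A, KRT16 and KRT1, and TP63, 9 of the 62754 genes in the deposited count table. The genes were picked by name after their values in rimonabant cultures had been seen, so rimonabant against DMSO is given below as a description with no test. Bulk total RNA was measured in 16 libraries, 2 for each of 8 treatments. Of 7 compounds, colchicine was given at 10 nM (it binds tubulin and stops microtubule assembly), epirizole at 2.5 uM (an anti-inflammatory), Ly-294002 at 120 nM (it inhibits PI3 kinase), moxifloxacin at 1.1 uM (an antibacterial), rottlerin at 1.23 uM (sold as an inhibitor of protein kinases), vardenafil at 125 nM (it inhibits a cyclic GMP phosphodiesterase) and rimonabant at 125 nM (a blocker of CNR1, a cannabinoid receptor). The last group received the solvent DMSO. All cultures had the WT genotype of this 1 line and batch label 1, and treatment ran from stage 5 of the protocol until 7 days into stage 6. Nothing states that libraries of a group are separate differentiations, and p-values then reflect only library-to-library spread, some of which may be technical.

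Keratins build the intermediate filaments of epithelial cells, and each filament pairs an acidic type I keratin with a basic type II keratin. KRT8 (type II) and KRT18 (type I) are the pair of simple, single-layered epithelia and are found in pancreatic endocrine, acinar and duct cells, while KRT19 (type I) and KRT7 (type II) mark ducts in the pancreas. KRT5 (type II) is the basal-layer keratin of squamous epithelia, KRT6A (type II) and KRT16 (type I) are induced in wounded or activated skin, and KRT1 (type II) belongs to the layers above the basal one. TP63 encodes p63, the transcription factor that sets up stratified epithelia and is known to bind the KRT5 and KRT14 genes.

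The promoter of KRT5 is shown because KRT5 had the widest range of the 9 genes and is a known target of p63. It is the window of 250 bases that ends at the RefSeq start of the gene, at chr12:52520395-52520644 on the minus strand of GRCh38.p14, a window that the longer GENCODE 29 span of KRT5 includes. Capitals mark CATG, letters found at the core of p63 sites, and a match to ATAAAA, which resembles the box that positions transcription starts.
KRT5 promoter: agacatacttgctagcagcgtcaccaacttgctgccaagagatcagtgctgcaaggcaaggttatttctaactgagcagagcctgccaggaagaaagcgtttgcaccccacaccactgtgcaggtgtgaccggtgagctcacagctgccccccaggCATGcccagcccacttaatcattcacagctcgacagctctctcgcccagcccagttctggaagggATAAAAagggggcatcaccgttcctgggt
CATG began 94 bases upstream of the gene start and ATAAAA began 29 bases upstream. On either strand, CATG was present in 47.6% of 35116 RefSeq promoter windows of the same length and ATAAAA in 14.8%. The letters TGANTCA, an AP-1 site, and GGGCGG, a GC box, were not in the KRT5 window and were in 6.57% and 42.6% of windows. These matches are letters only and no binding was measured.

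In GENCODE 29 (GRCh38) the type II keratin genes lie together on chromosome 12 with KRT18, and the other type I keratin genes on chromosome 17. KRT7 spans 12:52232520-52252186 on the plus strand, and KRT18 12:52948871-52952901 on the same strand. On the minus strand lie KRT6A at 12:52487174-52493257, KRT5 at 12:52514575-52520687, KRT1 at 12:52674736-52680407 and KRT8 at 12:52897187-52949954. KRT19 spans 17:41523617-41528308 and KRT16 17:41609778-41615899 on the minus strand, and TP63 3:189631416-189897279 on the plus strand. All 9 are annotated as protein-coding.

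Libraries held 23294377 to 30701868 reads, and 3 reads, the least told apart from 0, came to 0.0977 to 0.129 CPM, the read count scaled to a common library total. A general difference between libraries touches several results below. The GC measure, the median log2 deviation of the 10% of tested transcripts richest in GC minus that of the 10% poorest in GC, each gene taken relative to its mean over all libraries, was 0.159 and 0.722 in the rimonabant libraries, between -0.208 and 0.165 in the 12 libraries of the other compounds, and -0.317 and -0.374 in the DMSO libraries. The DMSO pair served as control in all 7 comparisons, so the comparisons are not independent. RNA came from whole cultures, and fewer cells of a type cannot be told apart from less RNA per cell.

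The simple keratins were abundant, TP63 was intermediate and the squamous keratins were scarce in every group. All 9 passed the filter on low counts, and all 9 also passed it when the rimonabant libraries were left out. Levels were scaled by TMM factors, which align the bulk of genes between libraries, and for comparison between genes they were divided by the length of the principal transcript. The median over 16 libraries was 429 CPM per kb for KRT8, 337 for KRT18, 322 for KRT19 and 15.8 for KRT7. TP63 followed at 7.01 CPM per kb, and the squamous keratins were far lower, at 0.396 for KRT5, 0.384 for KRT6A, 0.220 for KRT1 and 0.174 for KRT16. TP63 was detected in every library, with 445 to 1625 reads, while KRT5 had 2 to 278.

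**Figure D1:**
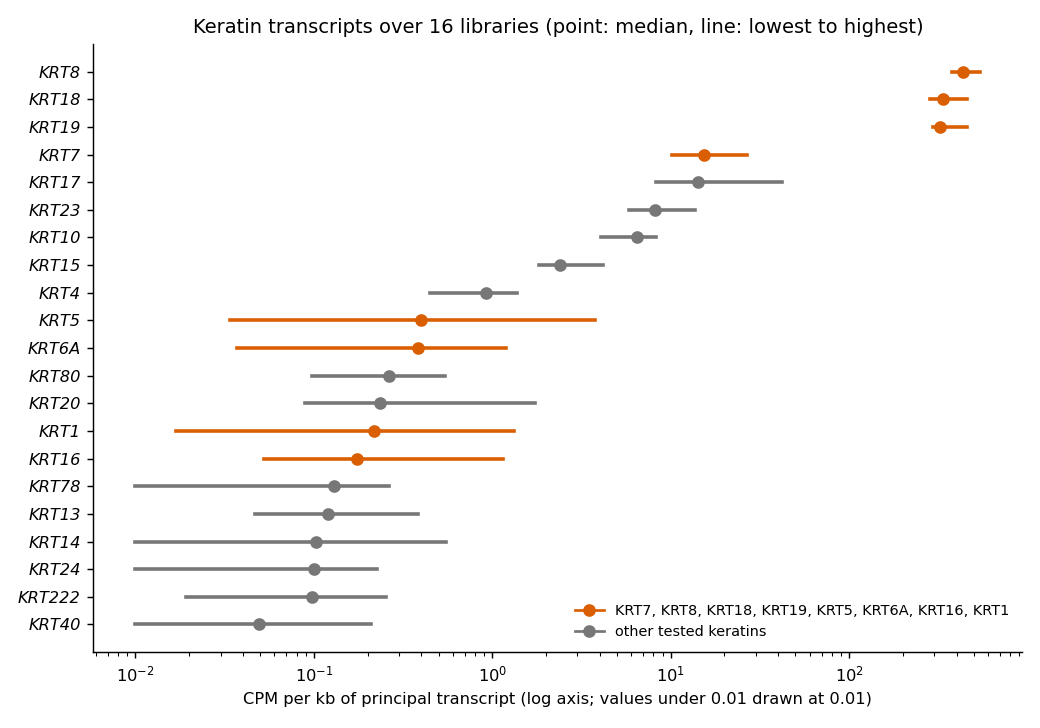
Level of the 8 described keratins (orange) and of the 13 other keratins that passed the low-count filter (grey), in CPM per kb of the principal transcript on a log axis. Points are medians and lines run from the lowest to the highest of 16 libraries; KRT8, KRT18 and KRT19 stand above all others, and the lines of KRT5, KRT6A, KRT1 and KRT16 are the longest among the described keratins.

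KRT8 and KRT18 were the most abundant keratins per length and stood highest in colchicine cultures. KRT18 had 722 and 628 TMM CPM in colchicine cultures and 485 and 447 in DMSO cultures. The 2 groups did not overlap, and KRT18 was 0.53 higher on the log2 scale in colchicine cultures (SE 0.09, adjusted p = 0.0401 by edgeR). The call ended when any 1 of the 4 libraries was left out (log2 difference 0.43 to 0.63, adjusted p = 0.0901 to 0.486 by edgeR). KRT8 had 1165 and 1039 TMM CPM in colchicine cultures and 826 and 813 in DMSO cultures. Its log2 difference was 0.43 (SE 0.10) and did not pass the threshold of 0.05 (adjusted p = 0.0623 by edgeR).

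Rottlerin cultures came next in order for KRT18. KRT18 had 621 and 619 TMM CPM with rottlerin, also above both DMSO libraries, with a log2 difference of 0.41 (SE 0.09, adjusted p = 0.0732 by edgeR). KRT8 had 1016 and 1005 TMM CPM with rottlerin, 0.30 above DMSO on the log2 scale (SE 0.10, adjusted p = 0.172 by edgeR). Neither difference passed the threshold. The mean of KRT8 was highest in colchicine, rimonabant and rottlerin cultures, of which rottlerin, the lowest, was clear of moxifloxacin, the next in order. Across the groups the mean of KRT18 ran in the order colchicine, rottlerin, rimonabant, moxifloxacin, epirizole, vardenafil, Ly-294002 and DMSO. From rimonabant down no group was clear of its neighbour in this order. Both libraries of rimonabant, moxifloxacin and vardenafil also lay above both DMSO libraries.

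The pair stayed close to a fixed proportion. Per length, KRT8 was 1.19 to 1.42 times KRT18 over the 16 libraries, with a median of 1.25 and a coefficient of variation of 5.14%. The highest ratio was in rimonabant 2 and the lowest in colchicine 1. In each of the 8 groups, the library with more KRT8 was also the one with more KRT18 and with more KRT7. The genes of KRT8 and KRT18 overlap by 1084 bases on opposite strands in GENCODE 29, and the strand setting of the counts was not given in the sources used here, so reads from the shared bases cannot be assigned with certainty. Reads counted to 51 KRT8 pseudogenes came to 2.29% to 3.63% of the KRT8 reads of a library, and reads counted to 68 KRT18 pseudogenes to 2.55% to 4.27% of the KRT18 reads.

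KRT7 varied most among the simple keratins. It had 38.2 and 44.8 TMM CPM in rimonabant cultures, 43.5 and 38.1 in colchicine cultures and 42.1 and 29.7 in rottlerin cultures, against 21.0 and 20.9 in DMSO cultures. In these 3 groups both libraries lay above both DMSO libraries. Colchicine gave a log2 difference of 0.96 (SE 0.27, adjusted p = 0.106 by edgeR) and rottlerin one of 0.78 (SE 0.27, adjusted p = 0.202 by edgeR), neither past the threshold. Epirizole libraries were apart from each other at 34.4 and 18.1 TMM CPM and lay on both sides of DMSO.

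The group mean of KRT7 was lower with the remaining 3 compounds. Moxifloxacin gave 20.7 and 30.1 TMM CPM, vardenafil 24.0 and 25.6, and Ly-294002 20.2 and 21.8. Moxifloxacin 2 was above rottlerin 2. Vardenafil libraries lay above both Ly-294002 libraries and both DMSO libraries, and the moxifloxacin and Ly-294002 groups overlapped DMSO. Genes that overlap KRT7 add little, since KRT86 had 0 to 14 reads and KRT7-AS 0 to 4 reads in a library and KRT87P none.

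KRT19 varied within a narrow range, as KRT8 did. It had 494 and 610 TMM CPM in rimonabant cultures, 493 and 526 in colchicine cultures, and 416 and 439 in DMSO cultures. Its largest tested difference was 0.25 on the log2 scale with colchicine (SE 0.10, adjusted p = 0.199 by edgeR). The highest library of all was 1.47 times the lowest, against 1.45 times for KRT8, 1.61 for KRT18 and 2.48 for KRT7. In only 3 of the 8 groups was the library with more KRT19 also the one with more KRT7, KRT8 or KRT18.

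**Figure D2:**
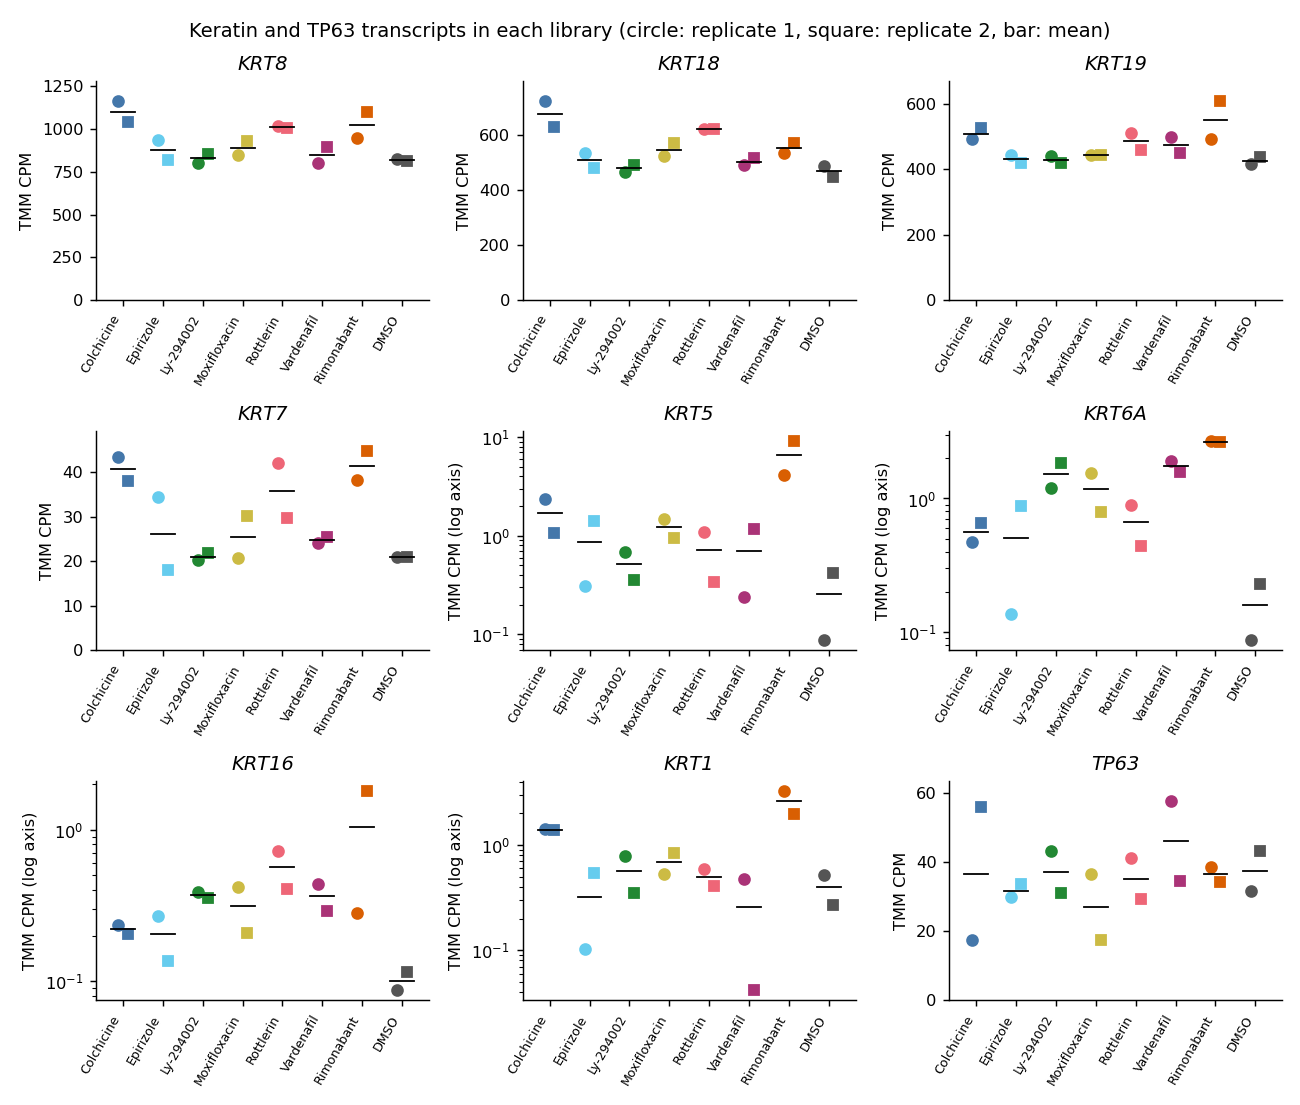
TMM CPM of the 9 genes in each library, with the 7 compounds to the left of DMSO. Circles are replicate 1, squares replicate 2 and bars the mean of both; axes of KRT5, KRT6A, KRT16 and KRT1 are logarithmic and the others start at 0. KRT18 is highest in colchicine and rottlerin, KRT5 and KRT1 are highest in rimonabant, and the 2 TP63 libraries of colchicine are far apart at 17.4 and 55.9.

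The squamous keratins were counted from few reads outside the rimonabant group. KRT5 had 117 and 278 reads in rimonabant cultures against 2 and 11 reads in DMSO cultures, or 4.13 and 9.08 TMM CPM against 0.0871 and 0.422. In the 12 libraries of the other compounds KRT5 ran from 0.239 to 2.34 TMM CPM with a median of 1.00, so both rimonabant libraries were above all of them. Colchicine had 60 and 31 reads, the most after rimonabant, and a log2 difference of 2.68 (SE 1.00, adjusted p = 0.196 by edgeR). Moxifloxacin had 39 and 27 reads, with a log2 difference of 2.19 (SE 1.02, adjusted p = 0.428 by edgeR). In the epirizole, rottlerin and vardenafil groups the 2 libraries differed by 4.66, 3.20 and 4.86 times and overlapped DMSO, whose own libraries differed by 4.84 times.

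KRT6A was low in DMSO and epirizole 1 and higher in most other libraries. It had 76 and 81 reads in rimonabant cultures, 48 and 38 in vardenafil cultures, 37 and 47 in Ly-294002 cultures and 41 and 23 in moxifloxacin cultures, against 2 and 6 in DMSO cultures. These 4 groups did not overlap DMSO, nor did rottlerin and colchicine. The log2 differences were 3.39 with vardenafil (SE 0.73), 3.19 with Ly-294002 (SE 0.73) and 2.83 with moxifloxacin (SE 0.74). None passed the threshold, with adjusted p of 0.890, 0.969 and 0.294 by edgeR, and their unadjusted p by the same test were 0.000298, 0.000527 and 0.00165. With no filter on low counts all 3 passed, with adjusted p of 1.20e-05, 4.16e-05 and 0.000324 by edgeR. In that fit 0.253%, 0.378% and 1.66% of 44689 genes passed. The KRT6A differences hardly moved (3.40, 3.21 and 2.84) while their SE fell to 0.57, 0.58 and 0.58. The smaller p thus came with a smaller fitted spread, which was not tested against these libraries. Rottlerin had 27 and 13 reads, colchicine 12 and 19, and epirizole 4 and 26. The summed reads of vardenafil were 10.8 times those of DMSO per library total, with an exact 95% binomial interval of 5.25 to 25.9 that covers counting error only.

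Few or no reads were counted to near copies of KRT6A. KRT6B had no read in any library and KRT6C at most 3. KRT16, the type I partner of KRT6A, lies on chromosome 17, where the pseudogene KRT16P2 had at most 3 reads. The handling of reads that match several genes is not given. These counts therefore cannot show whether reads of KRT6A or KRT16 were shared with near copies or lost.

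KRT16 was near the limit of detection. It had 8 and 55 reads in rimonabant cultures and 2 and 3 reads in DMSO cultures, so the rimonabant level rested on 1 of its libraries. Without rimonabant 2 the log2 difference was 1.44, against 3.30 with both. Rottlerin had 22 and 12 reads, and its summed reads were 5.62 times those of DMSO per library total (exact 95% binomial interval 2.19 to 18.4, counting error only). The fitted log2 difference of rottlerin was 2.43 (SE 0.89) and did not pass the threshold (adjusted p = 0.214 by edgeR). All 14 compound libraries were above both DMSO libraries for KRT16, though the lowest of them, epirizole 2, had 4 reads. The DMSO counts were at or under 3 reads, the least told apart from 0, and the gene was chosen with the DMSO libraries in view. The share of all genes that did so was not computed, and nothing is read from this count.

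KRT1 had 92 and 60 reads in rimonabant cultures, 36 and 40 in colchicine cultures, and 12 and 7 in DMSO cultures. Colchicine did not overlap DMSO, and its log2 difference of 1.82 (SE 0.72) did not pass the threshold (adjusted p = 0.204 by edgeR). Vardenafil 2 had the lowest count, 1 read, against 12 in vardenafil 1. Epirizole had 3 and 16 reads, and the group means of epirizole and vardenafil were the only ones below DMSO.

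TP63 differed widely between libraries of the same group. It had 17.4 and 55.9 TMM CPM in colchicine cultures, which are the lowest level of all and the second highest. Vardenafil had 57.7 and 34.6, Ly-294002 43.3 and 31.0, rottlerin 41.1 and 29.2, rimonabant 38.7 and 34.2, moxifloxacin 36.5 and 17.5, epirizole 29.9 and 33.6, and DMSO 31.7 and 43.1. No compound group lay clear of DMSO. Tested log2 differences ran from -0.47 with moxifloxacin (SE 0.53, adjusted p = 0.764 by edgeR) to 0.30 with vardenafil (SE 0.52, adjusted p = 0.958 by edgeR), and that of rimonabant was -0.04. Both rimonabant libraries, in which KRT5 was highest, lay between the 2 DMSO libraries for TP63.

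**Figure D3:**
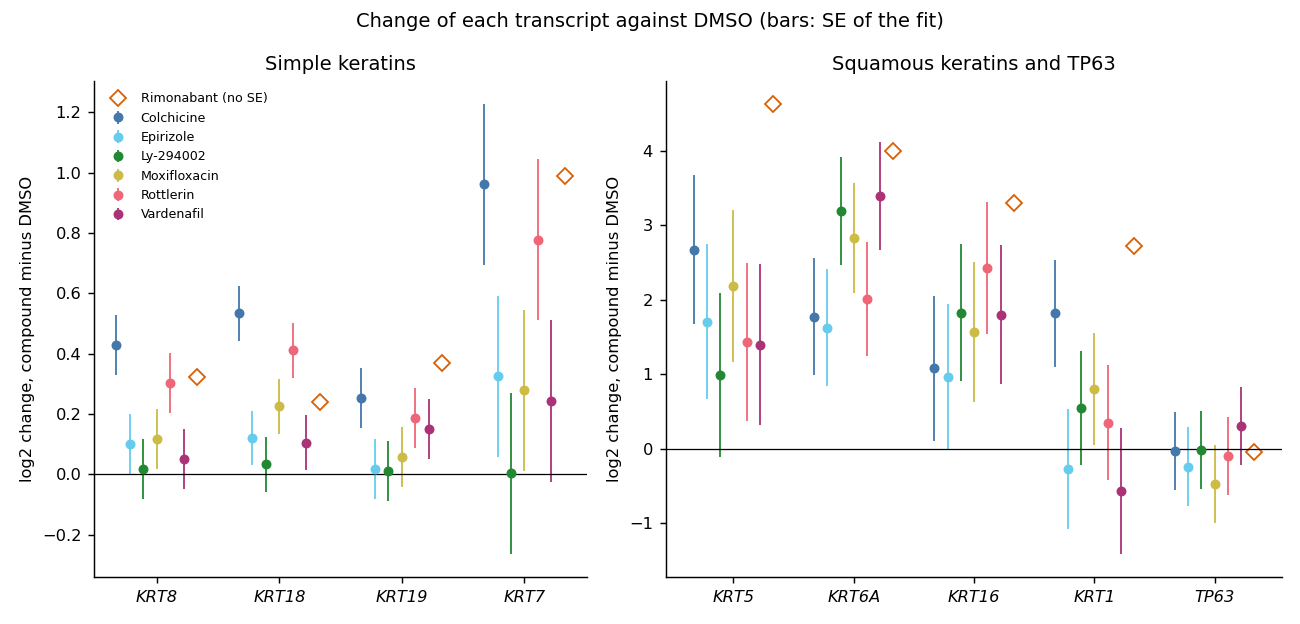
Log2 change of each gene against DMSO, with simple keratins on the left and squamous keratins and TP63 on the right, on different vertical scales. Filled points are the 6 compounds with their SE and open diamonds are rimonabant, for which no SE is given; the largest filled points are KRT6A with vardenafil (3.39) and Ly-294002 (3.19), and TP63 stays near 0.

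Read as a group, 1 of the 9 genes passed the threshold with colchicine, where 0.196% of 24515 tested genes passed. None of the 9 passed with rottlerin, where 0.00816% passed, nor with epirizole, Ly-294002, moxifloxacin or vardenafil, where 0% of genes passed by edgeR. At an unadjusted p under 0.05 the counts were 7 of 9 with colchicine (17.5% of all genes), 5 with rottlerin (14.8%), 2 with moxifloxacin (11.9%), 1 with Ly-294002 (4.69%), 1 with vardenafil (5.22%) and 0 with epirizole (5.26%). DESeq2 called more genes in general. It called 4 of the 9 with colchicine (5.35% of all genes to which it gave an adjusted p) and 2 with rottlerin (4.37%), and none with moxifloxacin (0.459%), vardenafil (0.00816%), epirizole (0%) or Ly-294002 (0%). It gave no adjusted p to KRT6A, KRT16 and KRT1 with colchicine, nor to these and KRT5 with moxifloxacin and rottlerin.

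Both compound libraries lay above both DMSO libraries for 8 of the 9 genes with colchicine, where 24.5% of all genes did so. The counts were 7 with moxifloxacin (23.2%), 6 with rottlerin (23.6%), 5 with vardenafil (19.4%), 2 with Ly-294002 (19.5%) and 1 with epirizole (19%). The count for rimonabant was 8 (26.8%), from which nothing is read because that contrast led to the choice of genes. In colchicine the exception was TP63. Since the 9 genes were chosen with the DMSO libraries in view and all comparisons use the same pair, a low DMSO value raises every count at once.

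The simple keratins were higher in libraries with a higher GC measure. Over the 14 libraries outside rimonabant, Pearson r with the GC measure was 0.82 for KRT7 (rho 0.89, adjusted permutation p = 0.00351), 0.80 for KRT18 (rho 0.93, adjusted permutation p = 0.00351), 0.74 for KRT8 (rho 0.82, adjusted permutation p = 0.00702) and 0.72 for KRT19 (rho 0.80, adjusted permutation p = 0.00866), over 9 relations computed. Without the 2 libraries farthest from the median of the GC measure r was 0.91, 0.80, 0.76 and 0.75 for KRT7, KRT18, KRT8 and KRT19. KRT16 had r = 0.61 (rho 0.41, adjusted permutation p = 0.0370), and 0.32 without those 2 libraries, so its relation rested on them. For KRT5 r was 0.39 (rho 0.29), for KRT1 0.36 (rho 0.46), for KRT6A 0.19 (rho 0.02) and for TP63 -0.19 (rho -0.22), with adjusted permutation p of 0.250, 0.267, 0.515 and 0.515. All these permutations ignored that 2 libraries share each treatment, so the p may be too small. The transcripts of KRT7 (62.9% GC), KRT19 (61.8%) and KRT16 (61.0%) are the most GC-rich of the 9 and that of TP63 (42.5%) the least. Those of KRT5 (56.8%), KRT8 (56.2%), KRT6A (55.8%) and KRT18 (55.7%) are close together, with r of 0.39, 0.74, 0.19 and 0.80, and that of KRT1 has 52.6%. The part of transcript GC content in these relations was not tested.

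An offset that removes each library's trend on GC content lowered the keratin differences by unequal amounts. With colchicine, KRT18 was 0.44 above DMSO with the offset and no longer passed the threshold (adjusted p = 0.0599 by edgeR). KRT19 with rottlerin changed sign, to -0.05. In rimonabant cultures the log2 difference with the offset was 4.35 for KRT5, 3.79 for KRT6A, 2.83 for KRT16 and 2.62 for KRT1, against 4.64, 4.003, 3.30 and 2.72 without it. In the same cultures it was 0.53 for KRT7, 0.09 for KRT8, 0.03 for KRT18 and -0.06 for KRT19, against 0.99, 0.32, 0.24 and 0.37 without it.

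**Figure D4:**
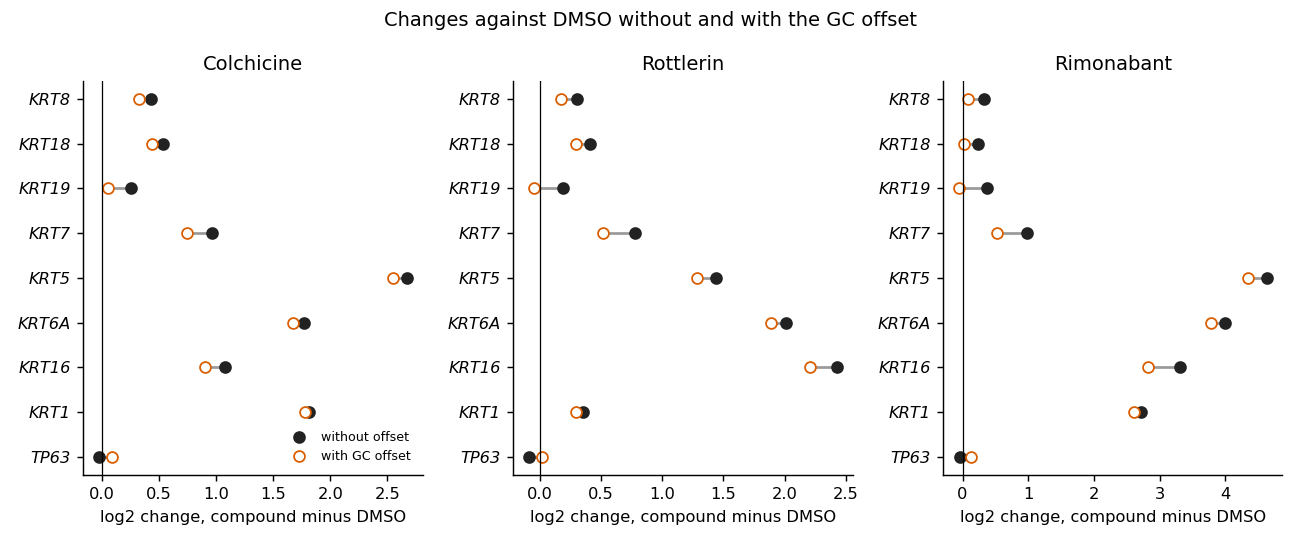
Log2 difference from DMSO of the 9 genes in colchicine, rottlerin and rimonabant cultures, without the GC offset (filled) and with it (open). With rimonabant KRT8, KRT18 and KRT19 move most of the way to 0 and KRT7 moves to 0.53, while KRT5 remains at 4.35 and KRT6A at 3.79.

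Pairs of the genes were compared across the 14 libraries outside rimonabant, 36 pairs in all, which share library, depth and GC trend. Permutations moved all 14 freely and ignored that 2 libraries share each treatment, so the p below may be too small. KRT8 and KRT18 had r = 0.97 (rho 0.95, adjusted permutation p = 0.00018, from the smallest p that 100000 permutations can give, 1e-05). KRT7 had r = 0.92 with KRT8 (rho 0.88, adjusted permutation p = 0.00018) and 0.89 with KRT18 (rho 0.88, adjusted permutation p = 0.00048). KRT7 and KRT19 had r = 0.76 (rho 0.69, adjusted permutation p = 0.0172), which did not pass without the 2 libraries farthest on KRT7, colchicine 1 and rottlerin 1, at r = 0.64 (adjusted permutation p = 0.211). After each library's GC trend was subtracted, r was 0.96 for KRT8 with KRT18, 0.87 for KRT7 with KRT8, 0.84 for KRT7 with KRT18 and 0.25 for KRT7 with KRT19, the first 3 still past the threshold.

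No pair with a squamous keratin or TP63 passed. KRT5 and TP63 had r = -0.29 (rho -0.08, adjusted permutation p = 0.480), and KRT5 and KRT1 had r = 0.46 (rho 0.46, adjusted permutation p = 0.264). KRT6A and KRT16, partners in one filament, had r = 0.54 (rho 0.63, adjusted permutation p = 0.207). Within groups, the library with more TP63 had more KRT8, KRT18 and KRT7 in only 1 of 8 groups, and more KRT6A in 7 of 8.

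Summed levels of marker lists also varied between libraries of a group. The sum of 12 endocrine genes, all 12 detected in every library, was higher in the library with more KRT18 in 8 of 8 groups. CHGA weighed most in it, at 315 of 485 CPM in moxifloxacin 2. The sum of 10 mesenchyme genes such as COL3A1 and VIM was higher in 1 of 8. Across the 14 libraries outside rimonabant, rho of KRT18 was only 0.27 with the endocrine sum and was -0.76 with the mesenchyme sum. The endocrine sum was 104 to 236 CPM in rimonabant, 74.8 to 282 in colchicine, 76.5 to 419 in epirizole, 62.1 to 163 in Ly-294002, 93.1 to 485 in moxifloxacin, 52.3 to 346 in rottlerin, 91.6 to 323 in vardenafil and 140 to 271 in DMSO cultures. The mesenchyme sum was 2619 to 3134 CPM in rimonabant, 2094 to 2173 in colchicine, 2442 to 3316 in epirizole, 2825 to 3608 in Ly-294002, 1786 to 2531 in moxifloxacin, 2138 to 2165 in rottlerin, 2074 to 2754 in vardenafil and 2678 to 2852 in DMSO cultures. Colchicine and rottlerin, the groups in which KRT18 was highest, had mesenchyme sums below both DMSO libraries, as did moxifloxacin. The part of these lists in the keratin levels was not tested. The hormone genes that define islet cells were low in all libraries, INS at 0.643 to 6.37 CPM, GCG at 1.11 to 9.97 and SST at 1.08 to 27.7, against 801 CPM or more for KRT8, a comparison that takes no account of transcript length.

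Likeness was measured as Pearson r of log2 levels over all 16 libraries among 15676 genes, as a description. The genes most like TP63 were MIR205HG (r = 0.95), IRX2 (0.94), TFAP2A (0.94), PIWIL4 (0.94) and STXBP6 (0.94). Over the 14 libraries outside rimonabant the values were 0.99, 0.97, 0.96, 0.95 and 0.94. MIR205HG is the host transcript of the epithelial microRNA miR-205, and TFAP2A is a transcription factor of surface ectoderm. MIR205HG had 31.2 and 92.2 TMM CPM in colchicine 1 and 2, the same order as TP63, and the library with more TP63 had more MIR205HG in 7 of 8 groups. The sum of 14 amnion, trophoblast and surface ectoderm genes, all detected in every library, ran from 435 CPM in moxifloxacin 2 to 1006 in colchicine 2, and was higher in the library with more TP63 in 6 of 8 groups and in the library with more KRT19 in 8 of 8.

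The genes most like KRT18 were CDKN1A (r = 0.95), LGALS3BP (0.94), NPC1 (0.93), CLDN6 (0.93) and PBXIP1 (0.93). CDKN1A encodes p21, a cell cycle inhibitor. It had 106 and 114 TMM CPM in colchicine cultures and 81.3 and 83.5 in rottlerin cultures, against 53.3 and 47.4 in DMSO cultures, and passed the threshold in both, with log2 differences of 1.13 (SE 0.10, adjusted p = 0.000297 by edgeR) and 0.71 (SE 0.10, adjusted p = 0.0485 by edgeR). Within groups, the library with more KRT18 had more CDKN1A in 5 of 8. The genes most like KRT7 were MOV10 (r = 0.94), ATG2A (0.92), PLIN3 (0.92), GAMT (0.92) and DNAJC5 (0.92). Those most like KRT5 were CTIF (r = 0.87), COQ8B (0.86), PKDCC (0.86), GADD45GIP1 (0.86) and ABCB8 (0.85), which over the 14 libraries outside rimonabant had r of 0.60, 0.70, 0.60, 0.62 and 0.68. These 5 have a GC content between 59.6% and 64.3%. The 5 most like KRT7 have 56.6% to 64.0%, those most like KRT18 50.3% to 60.5% and those most like TP63 41.9% to 58.9%. The median over tested genes was 47.8%.

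**Figure D5:**
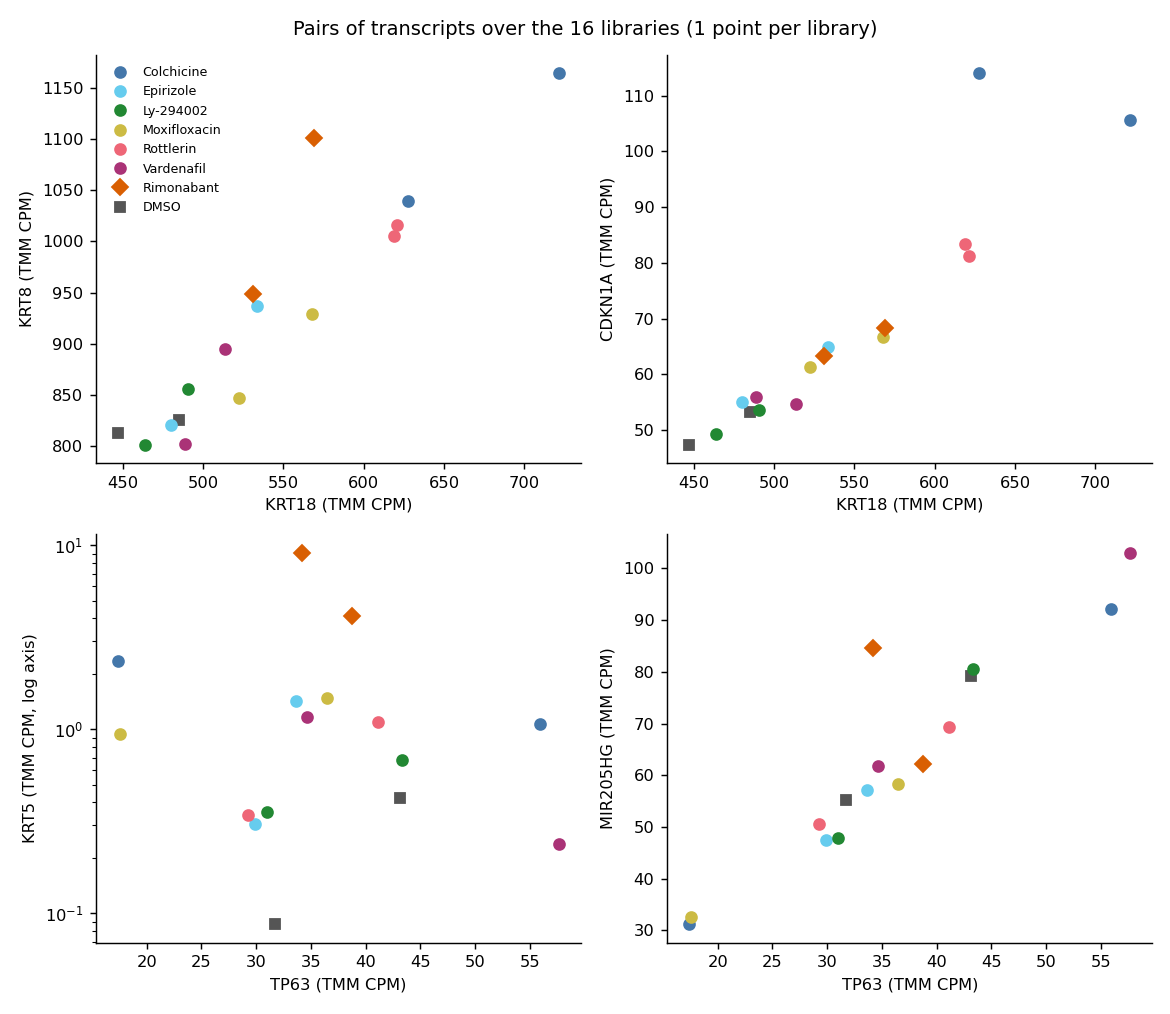
TMM CPM of pairs of transcripts, 1 point per library, with diamonds for rimonabant, circles for the other compounds and squares for DMSO. KRT8 and KRT18 lie along 1 line apart from rimonabant 2, with colchicine 1 at the top. CDKN1A and KRT18 are both highest in colchicine. KRT5 (log axis) is highest in the 2 rimonabant libraries at a middling TP63 level. MIR205HG and TP63 lie along 1 line apart from rimonabant 2.

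Among 47 other keratins, 13 passed the low-count filter and 13 had no read in any library. The most abundant was KRT17, at 41.5 and 68.9 CPM in rimonabant cultures and 22.2 and 18.03 in DMSO cultures. Rottlerin had 47.4 and 15.9 CPM, so rottlerin 1 was above rimonabant 1. The remaining compounds ran from 13.6 in colchicine 1 to 28.7 in Ly-294002 1. KRT14, the usual type I partner of KRT5 in basal cells, had 0 to 26 reads per library, with 0.917 and 0.820 CPM in rimonabant cultures and 0.086 and 0.038 in DMSO cultures. KRT17 and KRT14 did not pass the threshold in any comparison. KRT10, the type I partner of KRT1, was the only other keratin past the threshold, in rimonabant cultures, where it was 0.65 lower on the log2 scale (SE 0.19, adjusted p = 0.0486 by edgeR). It had 13.2 and 8.68 CPM in rimonabant 1 and 2 and 17.5 and 15.9 in DMSO 1 and 2. Libraries of the other compounds ran from 12.2 to 15.4 CPM, all under both DMSO libraries. Only rimonabant 2 lay below that range.

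Partners of keratins and epithelial genes were counted from lists chosen with earlier results of these data known. No gene of these lists passed with epirizole, Ly-294002, moxifloxacin or vardenafil, and with colchicine and rottlerin only CDKN1A did. With rimonabant, where 7.8% of all tested genes passed and 5.03% passed and were higher, 9 of 16 simple epithelium genes were higher and none lower, among them the tight junction claudins CLDN3 (log2 difference 0.78) and CLDN7 (0.41), the membrane protease ST14 (0.56) and its inhibitor SPINT1 (0.39). Of 12 desmosome and plakin genes, which anchor keratin filaments to the cell surface, 4 were higher, PKP3 (0.84), PLEC (0.72), EPPK1 (0.53) and JUP (0.44), and none lower. All 4 were highest in rimonabant 2, while rimonabant 1 lay within the range of the other compounds. PLEC had 356 and 546 CPM in rimonabant 1 and 2 and 391 and 364 in colchicine 1 and 2. ST14 was likewise uneven, at 102 and 150 CPM in rimonabant 1 and 2 and 117 in rottlerin 1. Of 22 tested basal and squamous genes 2 were higher, SFN (1.26) and ITGB4 (0.57). CDKN1A was also higher (0.39). With the GC offset none of these passed in rimonabant, and of all the list genes only CDKN1A with colchicine did. Rimonabant against DMSO is also the contrast that led to the choice of the keratins described here, and these lists hold their partners. The list counts in rimonabant are therefore a description, from which nothing further is read.

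Other basal genes ranged from abundant to nearly absent, in CPM, which takes no account of transcript length. The most abundant of the list were DST, a plakin that links keratin filaments to the basement membrane, at 1680 to 2164 CPM, and the growth factor receptor FGFR2 at 559 to 859. The desmosomal cadherin DSC3 had 63.7 to 138 CPM and the collagen COL17A1 37.2 to 123. At the other end, S100A2 had 0.207 to 0.812 CPM, NGFR 0.141 to 2.31 and the desmosomal cadherin DSG3 0 to 0.656, as scarce as the squamous keratins, and CSTA and SERPINB5 had at most 8 and 3 reads. Of 27 genes of cornification, the last step of skin differentiation, 14 passed the filter, none was higher in any comparison and KRT10 alone was lower, in rimonabant cultures. LORICRIN, TGM3 and CALML5 had no read in any library and IVL, an envelope protein, had 0 to 13 reads. In the lists of amnion, trophoblast and surface ectoderm (14 of 14 genes tested), mesothelium (7 of 7), urothelium (6 of 6), duct and pancreatic progenitor (6 of 8), gut epithelium (8 of 8), endocrine cells (12 of 12) and mesenchyme (10 of 10), no gene passed in any of the 7 comparisons.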

How the data were processed

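Ribosome-depleted total RNA of whole cultures was sequenced from both ends. The labels' protocols list FastQC 0.11.8 for read quality, Trimmomatic 0.38 for adaptors, STAR 2.7.1a for alignment, Picard 2.20.4, StringTie 2.0.4 and, for counting, featureCounts 1.6.0 or HTSeq. Per the submitters' processing notes the genome was GRCh38. Annotation release, strandedness and the handling of multimapping are not given in the sources used here. The deposited values were raw read counts per gene, with no normalization by the authors, and every column was mapped to a sample.

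Counts were fitted with edgeR 4.0.16 in R 4.3.3. filterByExpr kept 24515 genes with 99.9% of the reads. All 16 libraries entered 1 quasi-likelihood fit with TMM scaling and a term for each group (8 residual degrees of freedom), and each compound was tested against DMSO (two-sided F test, Benjamini-Hochberg adjustment over all tested genes, threshold 0.05). The script was tested on simulated counts. Log2 differences are compound minus DMSO with their standard error, and no p is given for the 9 genes with rimonabant. Correlations used log2(TMM CPM + 0.5), 100000 two-sided permutations and adjustment over the family named. Permutations moved libraries freely across treatments. Transcript length, GC content and coordinates came from GENCODE 29, which gave GC for 95.3% of tested genes, and the promoter from RefSeq (GRCh38.p14). No molecular identifiers were used, so floors and intervals cover counting error only.

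The 9 genes and the lists were chosen with earlier results of these data known. All 9 were named, and from each list the genes past the threshold, at most 4 by smallest p, or the most abundant where none passed, and the 5 genes most like TP63, KRT18, KRT7 and KRT5. INS, GCG, SST, KRT14, IVL, LORICRIN, TGM3, CALML5, DSC3, COL17A1, S100A2, NGFR, DSG3, CSTA and SERPINB5 were named after their values were seen. Alternatives were RLE scaling, no filter, DESeq2 1.42.0, a GC offset, a replicate block, a fit of only the compound and DMSO libraries, and each library left out.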

Additional observations from a re-analysis of the deposited data

How the results depend on the processing

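The count of the 9 genes past the threshold depended on the settings. With colchicine it was 1 (KRT18). It became 5 with no filter on low counts (KRT7, KRT8, KRT18, KRT5 and KRT1), 4 by DESeq2 and 3 with only the colchicine and DMSO libraries. It was 0 with the GC offset, with the replicate block, with the replicate block and GC offset together, and without each 1 of the 4 libraries (range 0 to 0). With rottlerin it was 0, and became 4 with no filter (KRT7, KRT8, KRT18 and KRT6A) and 2 by DESeq2 (KRT7 and KRT18). With no filter it became 2 with moxifloxacin (KRT5 and KRT6A), 1 with Ly-294002 (KRT6A) and 1 with vardenafil (KRT6A). Several SE were smaller in the fit with no filter. For TP63 with colchicine the SE was 0.15 against 0.52, though the 2 colchicine libraries had 17.4 and 55.9 TMM CPM. The number of correlated pairs was 4 of 36, and 9 with all 16 libraries. Over all genes, colchicine had 48 calls, and 150 with RLE scaling, 1568 with no filter, 904 by DESeq2, 261 with only its own and the DMSO libraries, 5 with the replicate block, 1 with the GC offset, 1 with both, and 1 to 2 without 1 library. Rottlerin had 2, and 1076 with no filter, 656 by DESeq2, 71 with only its own and the DMSO libraries, 0 with the GC offset and 0 to 5 without 1 library. Moxifloxacin, Ly-294002, vardenafil and epirizole had 0, and 742, 169, 113 and 33 with no filter. By DESeq2 moxifloxacin had 58 and vardenafil 2, and with only their own and the DMSO libraries moxifloxacin had 9, vardenafil 7 and Ly-294002 5. The cause was not tested. Where leaving out a library left 1 in a group, that library was assumed to vary like the other groups. Correlations of same-numbered deviations had a median of -0.03 over 28 group pairs, so shared replicate numbers gave no pairing common to all groups. They ran from -0.40 to 0.32 and were over 0.1 in 8 group pairs, and whether some groups were paired was not tested. The GC-adjusted correlations were added after seeing the data.

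Several log2 differences changed sign, among them KRT6A with epirizole (1.63 with all libraries) and KRT5 with vardenafil (1.40), which turned when 1 library was left out. With the GC offset, KRT19 was -0.12 with epirizole, -0.095 with Ly-294002, -0.12 with moxifloxacin, -0.046 with rottlerin and -0.059 with rimonabant, KRT7 was -0.11, KRT8 -0.041, KRT18 -0.019 and TP63 0.041 with Ly-294002, KRT8 was -0.017 with vardenafil, and TP63 was 0.088 with colchicine and 0.019 with rottlerin. With the offset and the replicate block, KRT19 was -0.12, -0.095, -0.12, -0.046 and -0.059 in the same order, KRT7 was -0.11, KRT8 -0.041, KRT18 -0.019 and TP63 0.027 with Ly-294002, KRT8 was -0.018 with vardenafil, and TP63 was 0.10 with colchicine and 0.0046 with rottlerin. With no filter TP63 was 0.0045 with Ly-294002. Leaving out 1 library gave, for epirizole, KRT19 -0.023 to 0.056, KRT1 -1.89 to 0.47, TP63 -0.44 to 0.0018, KRT7 -0.21 to 0.72 and KRT6A -0.25 to 2.49. For Ly-294002 it gave KRT19 -0.028 to 0.049, KRT18 -0.025 to 0.094, TP63 -0.27 to 0.23, KRT1 -0.14 to 1.09, KRT7 -0.050 to 0.057 and KRT8 -0.032 to 0.066. For the other compounds it gave TP63 -1.11 to 0.58 with colchicine, KRT1 -0.059 to 0.89 and TP63 -0.35 to 0.15 with rottlerin, KRT7 -0.020 to 0.52 with moxifloxacin, and TP63 -0.11 to 0.62, KRT8 -0.030 to 0.13, KRT5 -0.13 to 2.94 and KRT1 -3.11 to 0.29 with vardenafil. Depth limits KRT5, KRT6A, KRT16 and KRT1, whose DMSO libraries held 2 to 12 reads each.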
